A study of Rattus norvegicus with 8 samples.

Results

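The NLRP3 inflammasome and pyroptosis machinery was described through 10 genes, Nlrp3, Pycard, Casp1, Casp4, Casp8, Gsdmd, Nek7, P2rx7, Txnip and Panx1. They were taken by gene name from the non-control probes of 8 one-colour arrays, where 15 probes carried one of these names. Of the 10 genes, 8 had a probe bright enough to be tested, among 17424 genes tested in all. The cells were NR8383, an alveolar macrophage line established by lavage of a normal rat lung. One group was given NM401, a multi-walled carbon nanotube, at 0.17 µg/mL for 4 h (4 arrays), and the other was a control kept without it, at 0 µg/mL, for the same 4 h (4 arrays). Both groups were without fetal bovine serum during these hours, and each array is labelled as a separate biological replicate of the one cell line, so p-values measure the spread between these replicates of the line.

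The inflammasome is a protein complex that forms in the cytosol of macrophages when the sensor NLRP3 detects damage, such as ion loss or lysosomes ruptured by hard or fibrous particles. NLRP3 binds the adaptor ASC, the product of Pycard, which recruits caspase 1, and caspase 1 matures interleukin-1β and interleukin-18 and cleaves gasdermin D. The freed end of gasdermin D forms pores in the plasma membrane, which leads to the lytic cell death called pyroptosis, and in rodents caspase 4 (also called caspase 11) cleaves gasdermin D in response to lipopolysaccharide in the cytosol. In macrophages the transcript of Nlrp3 is induced by priming signals, and much of the later control is on proteins, which arrays of RNA do not measure.

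Values are on a log2 scale and give a probe's processed signal relative to the 75th percentile of all non-control spots on its array, which is 0 on this scale. Differences are NM401 minus control on this log2 scale. A gene stands for its tested probe with the highest mean signal, and it was called at a limma adjusted p below 0.05 (Benjamini-Hochberg over all tested probes). The 75th percentile itself was 2537 to 2878 in NM401 arrays and 958 to 1489 in control arrays, and the scaled signal of spike-in control probes (214 spots) differed by -2.31 log2 units, NM401 minus control. Higher and lower therefore mean relative to the bulk of an array's signal. Set against the spike-ins instead, each difference given here would move up by the size of that shift, which turns every fall among the 10 genes, and whether equal amounts of spike-in were added was not tested. All control arrays and NM401 replicate 1 lay on slide 1, and NM401 replicates 2 to 4 on slide 2. Position within a slide followed the groups as well, with row 2 for NM401 and row 1 for control, and its effect cannot be told apart from that of NM401. Of 13 macrophage markers with a probe, 11 were well above background on all 8 arrays, among them Cd68, Csf1r, Mrc1, Siglec1, Pparg, Fabp4 and Spi1, while Marco was so on none, and 0 of 9 epithelial markers was so on all arrays. The summed scaled signal of the macrophage markers was 133 to 140 in NM401 and 151 to 158 in control arrays, a sum led by the brightest probes. Of the 12 tested markers 4 were called higher (Fabp4, Spi1, Fcgr1a and Adgre1), 4 lower (Cd68, Pparg, Mrc1 and Lyz2) and 4 not called, with a median difference of 0.15. Lyz2 was called higher after quantile normalisation (0.37, limma adjusted p = 0.00154), where Cd68 and Pparg were not called. With median scaling Mrc1 alone of the 4 lower markers stayed called. The Adgre1 probe was well above background on 1 of 4 control arrays and stood at -0.07 with normexp background correction. The markers of fibroblasts and endothelium, of which 4 of 8 were well above background on all arrays, summed to 1.15 to 1.30 in NM401 and 0.993 to 1.01 in control arrays, where Dcn alone was called higher, Col1a2 and Cdh5 were called lower and Pecam1 was not called (median -0.62). For neutrophil markers, where Camp alone of 8 was so, the sums were 0.325 to 0.446 in NM401 and 0.485 to 0.671 in control arrays, and for lymphocyte markers, where Cd3d alone of 7 was so, 0.0718 to 0.127 in NM401 and 0.110 to 0.158 in control arrays. All 3 tested neutrophil markers (Mpo, Camp and S100a8) and the 1 tested lymphocyte marker, Cd3d, were called lower, beside 35.4% of all genes. Mpo was well above background on 4 control and 0 NM401 arrays, so its fall is given as a bound, at least 3.00-fold. Cd3d differed by -0.79 (limma adjusted p = 0.00122), and the groups overlapped for Camp and S100a8. The part of these markers in the results below was not tested.

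With NM401, Nlrp3 and Casp4 rose and Gsdmd and Txnip fell, while Casp1, Pycard, Casp8 and Nek7 were not called. Thus 2 of the 8 tested members were called higher and 2 lower, or 50% called. Over all 17424 genes 57.3% were called, 21.9% higher and 35.4% lower, so the share of members called was near that of all genes. The 4 NM401 values and the 4 control values did not overlap in 4 of the 8 members, against 53.2% of all genes. The median difference was 0.08 over the members and -0.10 over all genes. In bulk RNA, a change in the number of expressing cells and a change in RNA per cell cannot be told apart.

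**Figure D1:**
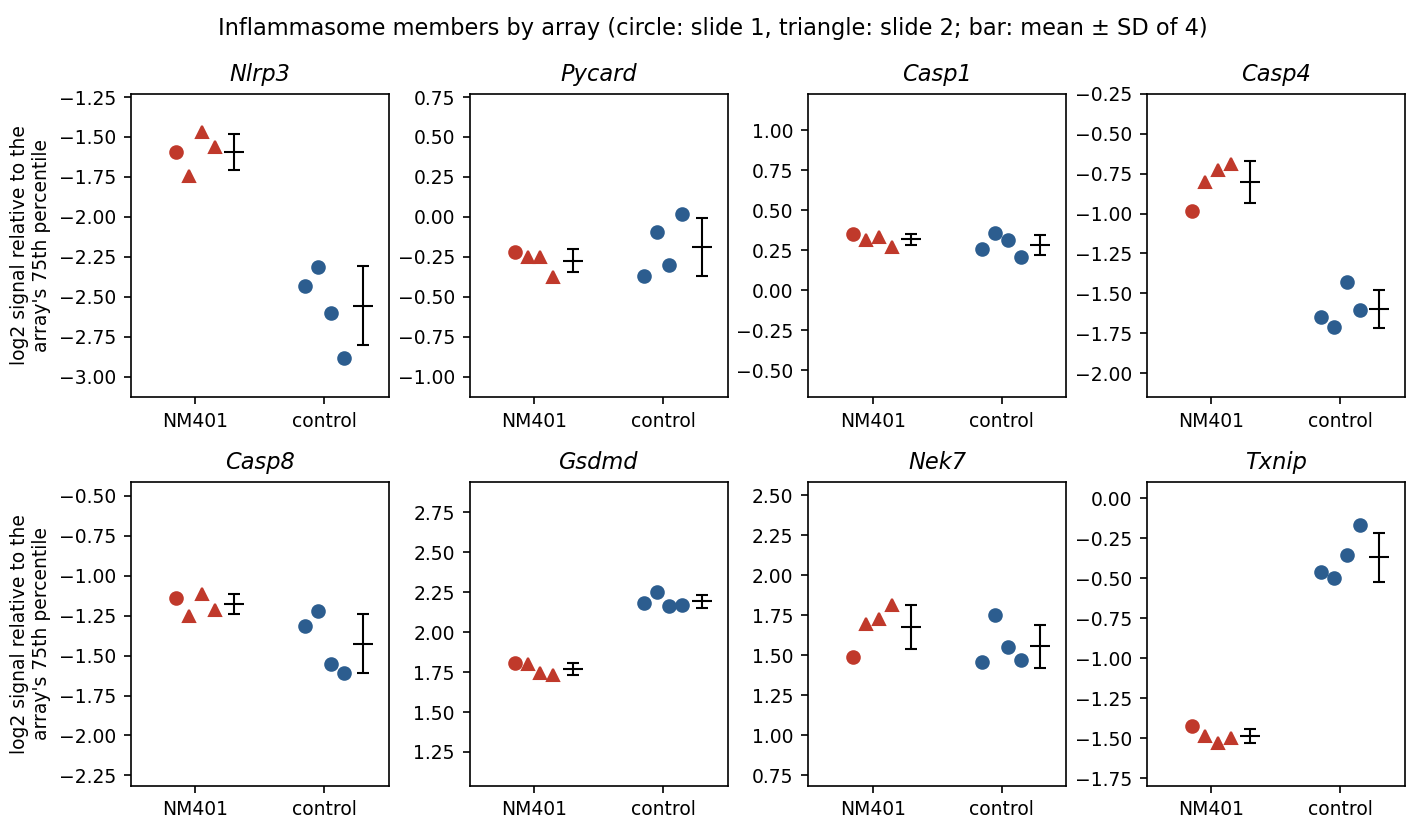
Log2 signal relative to the array's 75th percentile (vertical axis, the same span in each panel) of the brightest tested probe of 8 members, with the 4 NM401 arrays left of the 4 control arrays and the mean ± SD of each group beside them. The groups are apart for Nlrp3, Casp4, Gsdmd and Txnip and overlap for Pycard, Casp1, Casp8 and Nek7.

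Nlrp3 encodes the sensor itself and had 3 tested probes, all on chromosome 10 of rn4 on the plus strand, the build named in the file headers. Its brightest probe, A_44_P1109874 (chr10:45874596-45874655), had values of -1.59, -1.74, -1.47 and -1.56 in NM401 replicates 1 to 4, against -2.43, -2.31, -2.60 and -2.88 in control replicates 1 to 4. All 4 NM401 arrays lay above all 4 control arrays. The difference was 0.96 ± 0.12 (SE, limma adjusted p = 0.000441), a 1.95-fold rise. The probe A_44_P281733 (chr10:45873953-45874157), whose 60 bases span a gap in the genome, averaged -3.47 ± 0.07 in NM401 and -4.27 ± 0.17 in control (SD, n = 4 each) and rose by 0.80 ± 0.09 (SE, limma adjusted p = 0.000245). The third probe, A_44_P1109879 (chr10:45865711-45865770), averaged -3.91 ± 0.12 in NM401 and -4.48 ± 0.14 in control (SD, n = 4 each) and rose by 0.57 ± 0.09 (SE, limma adjusted p = 0.00109). The 3 probes do not overlap in the genome and start up to 8885 bases apart, so they are separate readings on the same arrays. Whether all 3 read the same transcript was not tested. The first 30 bases of the brightest probe and the whole of the one farthest upstream are shown because the size of the Nlrp3 rise depends on which of them is read.
Nlrp3 A_44_P1109874, first 30 bases: agtagctggcaagtttgtggcagcctctca
Nlrp3 A_44_P1109879, 60 bases: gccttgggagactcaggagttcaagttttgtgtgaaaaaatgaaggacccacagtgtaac

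The rise of the 2 dimmer Nlrp3 probes depended on how background was treated. With normexp background correction A_44_P1109879 stood at -0.01 (limma adjusted p = 0.919, not called) and A_44_P281733 at 0.21 (limma adjusted p = 0.0115), while the brightest probe stood at 0.71 (limma adjusted p = 5.27e-05). Read from the authors' series table, which has no background subtracted, A_44_P1109879 stood at 0.11 and was not called (limma adjusted p = 0.459). The mean pixel signal of that probe was 228 to 262 in NM401 and 103 to 112 in control arrays, beside a local background of 42 to 52 in NM401 and 34 to 45.5 in control arrays. The brightest probe had 774 to 1026 in NM401 and 168 to 317 in control arrays.

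**Figure D2:**
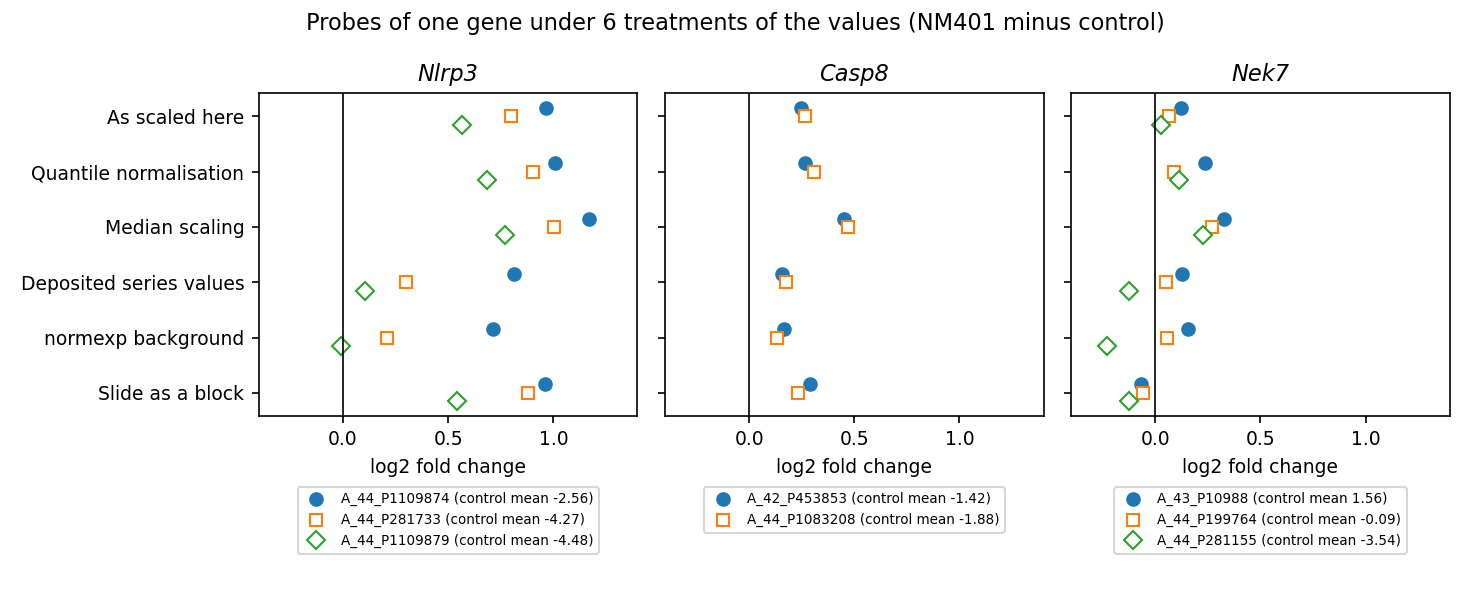
Log2 fold change, NM401 minus control (horizontal axis), of each probe of Nlrp3, Casp8 and Nek7 under 6 treatments of the values (vertical axis). The brightest Nlrp3 probe stays between 0.71 and 1.17, the dimmest lies at -0.01 with normexp background correction, and the Nek7 probes lie on both sides of 0.

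Nek7 encodes a kinase that binds NLRP3 and is needed for its assembly in mouse macrophages. Its 3 tested probes lie on chromosome 13 on the minus strand and start 1291 to 2757 bases apart. The brightest, A_43_P10988 (chr13:51679544-51679603), had 1.49, 1.69, 1.73 and 1.81 in NM401 replicates 1 to 4, against 1.46, 1.75, 1.55 and 1.47 in control replicates 1 to 4, so the groups overlapped. The difference was 0.12 ± 0.09 (SE), with a 95% interval of -0.09 to 0.34 and a limma adjusted p of 0.288. The other probes differed by 0.07 ± 0.06 and 0.02 ± 0.07 (SE, limma adjusted p = 0.402 and 0.778). NM401 replicate 1, the array on the controls' slide, was the lowest NM401 array on all 3 probes, and with slide as a block the brightest probe stood at -0.070 (limma adjusted p = 0.697). Median scaling gave 0.33 for the brightest probe (limma adjusted p = 0.0449) and 0.27 for A_44_P199764 (limma adjusted p = 0.0283), both called higher. With normexp A_44_P281155, the dimmest of the 3, stood at -0.23 and was called lower (limma adjusted p = 0.0158). That probe is shown because its direction depends on how background was treated.
Nek7 A_44_P281155, chr13:51682301-51682360, 60 bases: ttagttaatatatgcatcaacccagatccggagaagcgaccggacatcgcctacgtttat

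P2rx7, the receptor through which extracellular ATP opens the way to potassium loss and NLRP3 activation, was not well above background on any of the 8 arrays. Panx1, which encodes a channel that releases ATP and opens when caspases cut it, was likewise not well above background on any array. The unscaled processed signal of the P2rx7 probe (chr12:35074875-35074934) was 5.34 to 7.25 in NM401 and 3.56 to 7.91 in control arrays, and that of the Panx1 probe (chr8:11810732-11810791) was 5.18 to 7.02 in NM401 and 3.53 to 4.90 in control arrays. No fold is given for these genes, whose RNA was not detectable with these probes, and in the fit without a filter on dim probes neither was called (limma adjusted p = 0.0982 for P2rx7 and 0.0822 for Panx1).

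Txnip encodes a protein that binds thioredoxin, takes part in glucose uptake control and has been described in mice as a partner of NLRP3. Its probe, A_44_P237621 (chr2:191360631-191360690, plus strand), had -1.42, -1.48, -1.53 and -1.50 in NM401 replicates 1 to 4, against -0.46, -0.50, -0.35 and -0.16 in control replicates 1 to 4. Every NM401 array lay below every control array, and the gap between the groups was wider than the range within either. Txnip fell by 1.11 ± 0.08 log2 units (SE, limma adjusted p = 5.12e-05), or 2.17-fold. It was called in all 19 alternatives run, with values of -1.16 to -0.91. Before scaling between arrays the groups had almost the same processed signal, 905 to 1072 in NM401 and 856 to 1053 in control arrays, while the other 7 tested members were brighter in every NM401 array than in any control array. Among the 8 tested members, overlapping unscaled signals were seen for Txnip alone. The first 30 bases of its probe are shown because the gene has this reading alone.
Txnip A_44_P237621, first 30 bases: tttgtgtatctttttgtatgattaaaaact

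**Figure D3:**
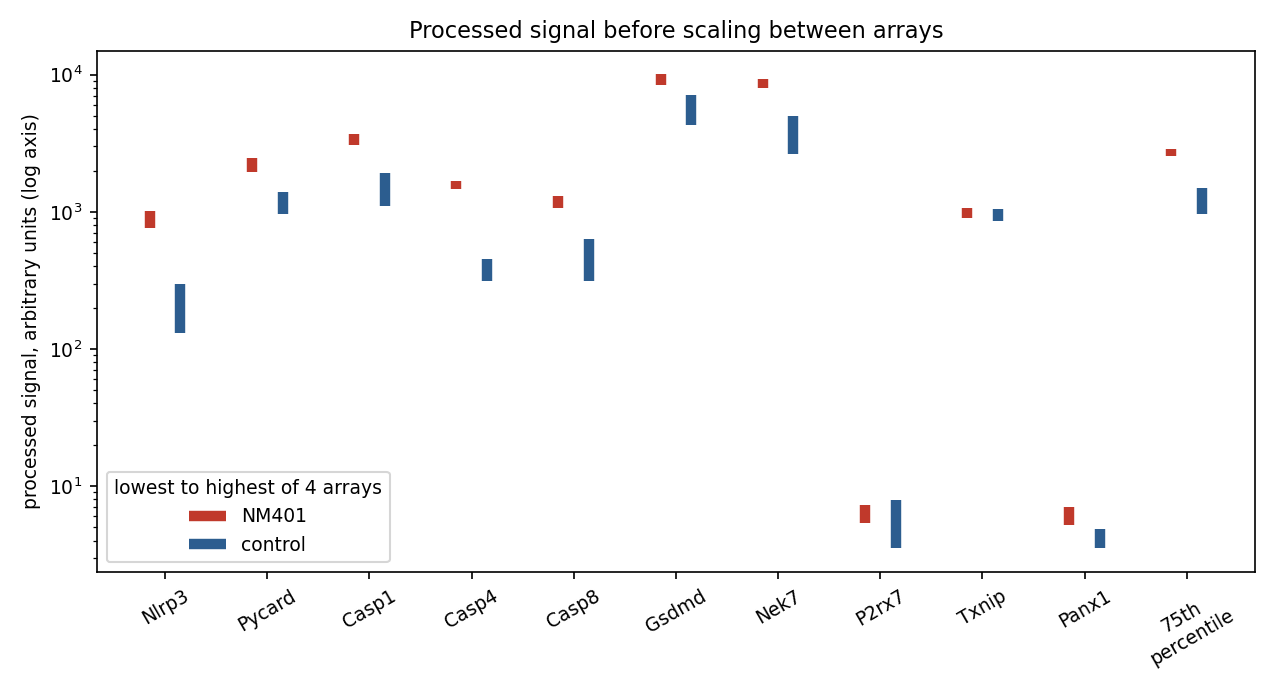
Processed signal before scaling between arrays (vertical axis, log scale, arbitrary units), as the lowest to the highest of 4 arrays, with NM401 left of control, for the 10 members and for the 75th percentile of all non-control spots. The 75th percentile is 2537 to 2878 in NM401 and 958 to 1489 in control, and Txnip is 905 to 1072 in NM401 and 856 to 1053 in control. Spots of different probes are not comparable in level.

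Pycard encodes ASC, the adaptor that joins NLRP3 to caspase 1. Its probe (chr1:187276921-187276980, minus strand) had -0.22, -0.25, -0.25 and -0.38 in NM401 replicates 1 to 4, against -0.37, -0.09, -0.30 and 0.02 in control replicates 1 to 4. The groups overlapped, with the NM401 values inside the range of the controls but for replicate 4. The difference was -0.09 ± 0.09 (SE), with a 95% interval of -0.30 to 0.13 and a limma adjusted p of 0.455, and with median scaling it stood at 0.12 (limma adjusted p = 0.299). The probe is shown as the reading of the adaptor.
Pycard A_44_P226597, 60 bases: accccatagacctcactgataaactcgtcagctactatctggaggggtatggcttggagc

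Casp1 encodes the protease of the complex. Its probe (chr8:2032917-2032976, plus strand) had 0.35, 0.32, 0.33 and 0.27 in NM401 replicates 1 to 4, against 0.26, 0.35, 0.31 and 0.21 in control replicates 1 to 4. These were the tightest NM401 values of the 8 tested members (SD 0.03, n = 4). The difference was 0.03 ± 0.05 (SE), with a 95% interval of -0.09 to 0.16 and a limma adjusted p of 0.600. With median scaling it was 0.24 and called (limma adjusted p = 0.0359).

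Casp4 encodes the caspase that senses lipopolysaccharide in the cytosol. Its probe (chr8:2075044-2075103, plus strand) lies on the chromosome of Casp1 in rn4. It had -0.98, -0.80, -0.73 and -0.69 in NM401 replicates 1 to 4, against -1.65, -1.71, -1.43 and -1.60 in control replicates 1 to 4. All 4 NM401 arrays were above all 4 control arrays, with replicate 1 the lowest of them. Casp4 rose by 0.80 ± 0.09 (SE, limma adjusted p = 0.00022), a 1.74-fold rise, and stood at 0.61 with slide as a block (limma adjusted p = 0.00949). The probes of the 2 inflammatory caspases are shown because the genes are related in sequence and gave different results.
Casp1 A_44_P468258, 60 bases: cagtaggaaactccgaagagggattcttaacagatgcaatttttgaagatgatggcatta
Casp4 A_44_P1028549, 60 bases: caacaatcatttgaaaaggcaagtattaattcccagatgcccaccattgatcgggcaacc

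Casp8 encodes the initiator caspase of death receptors, which can also cut gasdermin D and process interleukin-1β in mouse macrophages. Its 2 tested probes (chr9:57437607-57437666 and chr9:57437634-57437693, plus strand) start 27 bases apart and share 33 bases, so they are nearly one reading. The brighter had -1.14, -1.25, -1.12 and -1.21 in NM401 replicates 1 to 4, against -1.31, -1.22, -1.55 and -1.61 in control replicates 1 to 4. The groups overlapped through control replicate 2. The difference was 0.25 ± 0.09 (SE) with a 95% interval of 0.03 to 0.46, and it missed the threshold (limma adjusted p = 0.055). The other probe differed by 0.27 ± 0.09 (SE) and was called (limma adjusted p = 0.0414). The brighter probe was called in 5 of 19 alternatives, among them quantile normalisation (0.26, limma adjusted p = 0.0473) and the fit without control replicate 2 (0.31, limma adjusted p = 0.0195).

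Gsdmd encodes gasdermin D, which forms the pore of pyroptosis. Its probe (chr7:113836932-113836991, plus strand) was printed on 2 spots and had 1.80, 1.80, 1.75 and 1.73 in NM401 replicates 1 to 4, against 2.18, 2.25, 2.17 and 2.17 in control replicates 1 to 4. Both groups were tight (SD 0.04 each) and did not overlap. Gsdmd fell by 0.42 ± 0.05 (SE, limma adjusted p = 0.000257), or 1.34-fold. With median scaling it fell by 0.22 (limma adjusted p = 0.0318) and with slide as a block by 0.39 (limma adjusted p = 0.0106). The first 30 bases of the probe are shown as the one reading of the pore gene.
Gsdmd A_44_P199469, first 30 bases: aacctaactcagtcacagggttagaatgca

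**Figure D4:**
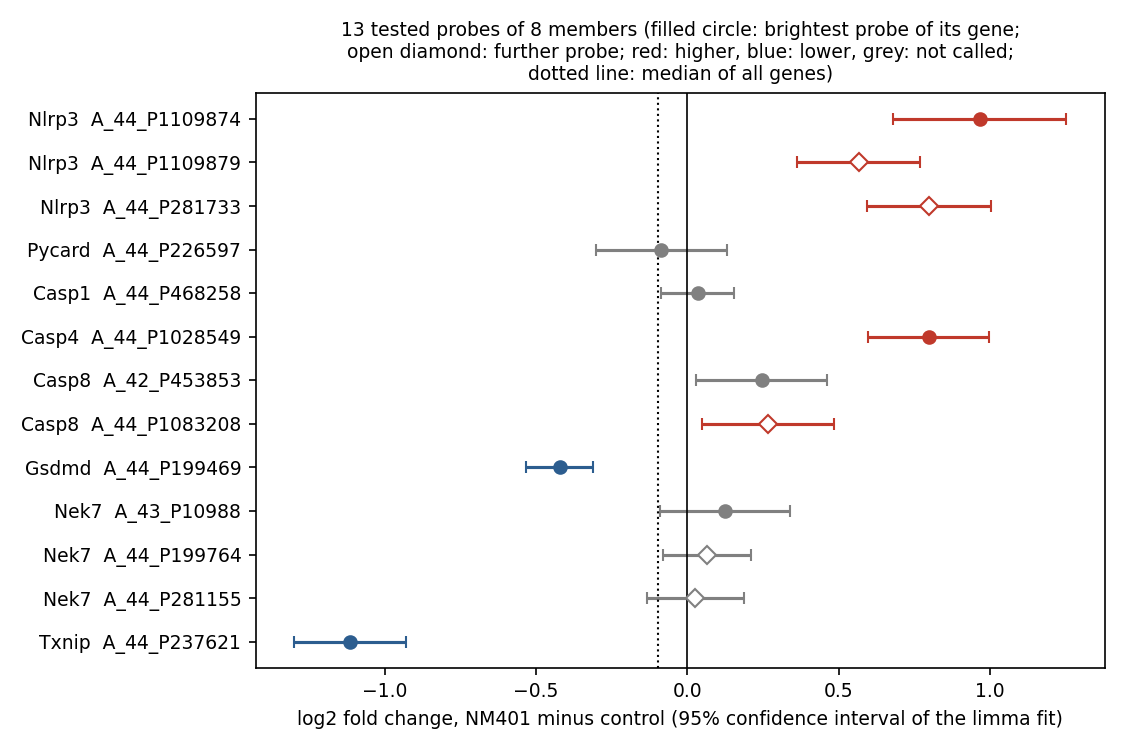
Log2 fold change, NM401 minus control (horizontal axis), with the 95% confidence interval of the limma fit, for the 13 tested probes of 8 members (vertical axis). The 3 Nlrp3 probes and Casp4 lie above 0, Gsdmd and Txnip lie below the median of all genes (-0.10), and the Nek7, Casp1 and Pycard intervals include 0. The intervals of both Casp8 probes also lie above 0, with the dimmer probe called higher and the brighter not called.

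The direction of the 4 called members was the same in every alternative run, none of which scaled to the spike-ins. The dimmest Nlrp3 probe, A_44_P1109879, stood at -0.01 with normexp. Calls of the 4 members ended only where NM401 replicate 1 alone was set against the 4 controls of its slide. There Nlrp3 stood at 0.96 (limma adjusted p = 0.0559), Casp4 at 0.61 (limma adjusted p = 0.0521) and Gsdmd at -0.39 (limma adjusted p = 0.0654), and only Txnip, at -1.06, was called (limma adjusted p = 0.0355). That fit has 1 NM401 array, assumed to vary like the controls, and called 12.2% of all genes. With slide as a block, where the contrast again rests on NM401 replicate 1, all 4 were called beside 33% of all genes. Over all genes the median difference was -0.10 with 75th-percentile scaling, against 0.01 with quantile normalisation and 0.11 with median scaling. Quantile normalisation called 3 members higher and 2 lower (28.6% and 26.7% of all genes), and median scaling called 5 higher and 2 lower (35.1% and 19.2%).

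Of 77 other genes of the pathway in 10 lists, 73 had a probe and 63 were tested, of which 17 rose (27%), 21 fell (33.3%) and 25 were not called, near the shares of 21.9% and 35.4% over all genes. Their median difference was -0.004, against -0.10 for all genes. The split depended on the scaling, with 19 higher and 12 lower after quantile normalisation and 27 higher and 7 lower with median scaling. With slide as a block 13 were higher and 10 lower. The lists below hold 1 to 12 tested genes each, and none was tested as a set. Their counts stand beside 57.3% of all genes called.

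The substrates and output of the complex are described first, and the order of the lists is not a ranking by effect. Of 5 tested interleukin-1 family genes 1 rose, 0 fell and 4 were not called. Il1a, whose product acts as an alarm signal when cells rupture, had 1.93, 1.79, 1.99 and 1.90 in NM401 replicates 1 to 4, against 0.74, 0.71, 0.95 and 0.32 in control replicates 1 to 4. It rose by 1.22 ± 0.13 (SE, limma adjusted p = 0.000172), or 2.33-fold, and was also called within slide 1 (1.25, limma adjusted p = 0.0417). Il1b and Il18, the substrates of caspase 1, were picked out after their values were seen. Il1b stood at 0.08 ± 0.10 (SE, limma adjusted p = 0.538) and Il18 at -0.09 ± 0.07 (SE, limma adjusted p = 0.263). Ninj1, which encodes a protein of the plasma membrane rupture that follows pore formation, was the 1 tested gene of its list and rose by 0.36 ± 0.09 (SE, limma adjusted p = 0.00883), missing the threshold with slide as a block (limma adjusted p = 0.0573). The other 3 genes of that list, gasdermins other than Gsdmd, were too dim to be tested.

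**Figure D5:**
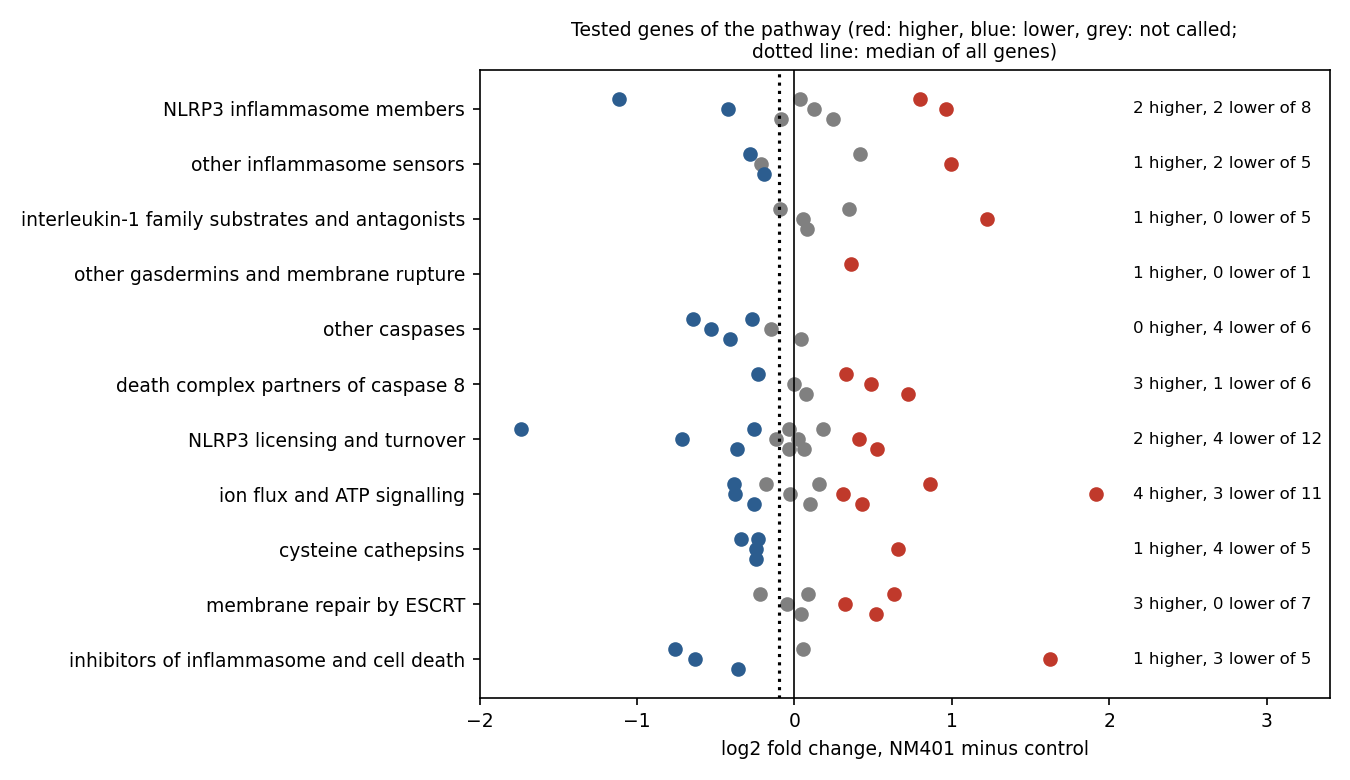
Log2 fold change, NM401 minus control (horizontal axis), of each tested gene of the 8 members and of 10 lists of other pathway genes (vertical axis), coloured by call. Over all genes 21.9% were called higher and 35.4% lower. Among the lists, the caspases hold 4 lower and 0 higher of 6, the ESCRT genes 3 higher and 0 lower of 7, and the remaining lists hold calls in both directions except the interleukin-1 and gasdermin lists, where 1 gene each is higher.

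Of 5 other tested sensors 1 rose and 2 fell. Naip5, a sensor of bacterial flagellin in mice, had -1.35 to -1.08 in NM401 and -2.76 to -1.86 in control arrays, and rose by 0.99 ± 0.19 (SE, limma adjusted p = 0.00288). It belongs to a family of similar copies, so its probe may also read a relative, and with slide as a block it missed the threshold (limma adjusted p = 0.0841). Nod1 and Nod2, sensors of bacterial cell wall fragments, fell by 0.19 ± 0.05 and 0.28 ± 0.09 (SE, limma adjusted p = 0.0143 and 0.0331), while with median scaling Nod1 stood at 0.01 and Nod2 at -0.08, neither called.

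Of 6 other caspases 4 fell, 0 rose and 2 were not called, beside 35.4% lower and 21.9% higher over all genes. Casp2, an initiator linked to DNA damage, had 1.09 to 1.19 in NM401 and 1.71 to 1.86 in control arrays and fell by 0.65 ± 0.05 (SE, limma adjusted p = 8.72e-05). Its 3 tested probes were all called lower. Casp12 fell by 0.41 ± 0.08 and the apoptosome caspase Casp9 by 0.27 ± 0.06 (SE, limma adjusted p = 0.00325 and 0.00556). A second tested Casp9 probe stood at -0.09 and was not called (limma adjusted p = 0.598). With slide as a block Casp2 alone of these 3 caspases was called (limma adjusted p = 0.00501). With median scaling Casp12 and Casp9 were not called (-0.20 and -0.07).

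Of 6 partners of caspase 8 in death complexes 3 rose and 1 fell. Mlkl, which encodes the pore protein of necroptosis, had -0.59 to -0.27 in NM401 and -1.35 to -0.95 in control arrays and rose by 0.72 ± 0.10 (SE, limma adjusted p = 0.000718). Ripk3, the kinase that activates MLKL, rose by 0.33 ± 0.06 (SE, limma adjusted p = 0.00263) and missed the threshold with slide as a block (limma adjusted p = 0.0611). Fadd, the adaptor of caspase 8, rose by 0.49 ± 0.05 (SE, limma adjusted p = 0.000239) but stood at 0.09 with normexp (limma adjusted p = 0.276). Ripk1 fell by 0.23 ± 0.05 (SE, limma adjusted p = 0.00507) and stood at -0.03, not called, with median scaling.

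Of 12 tested genes of NLRP3 licensing and turnover 2 rose, 4 fell and 6 were not called. Brcc3, which removes ubiquitin from NLRP3, rose by 0.52 ± 0.06 (SE, limma adjusted p = 0.000204), with both of its probes called higher. The dimmer Brcc3 probe had overlapping groups. It was not called with normexp (0.27, limma adjusted p = 0.0700) or from the deposited series values (0.34, limma adjusted p = 0.0503). Gbp2, an interferon-induced GTPase, rose by 0.41 ± 0.07 (SE, limma adjusted p = 0.00144). Mavs, a mitochondrial adaptor, fell by 0.37 ± 0.06 (SE, limma adjusted p = 0.00124) and stood at -0.16, not called, with median scaling. Txn1, which encodes thioredoxin, the binding partner of the Txnip product, had 6.58 to 6.64 in NM401 and 7.22 to 7.39 in control arrays and fell by 0.71 ± 0.05 (SE, limma adjusted p = 6.54e-05), but after quantile normalisation it stood at 0.02 and was not called (limma adjusted p = 0.846). A second tested Txn1 probe was far dimmer, with means of -3.43 in NM401 and -2.34 in control arrays. It fell by 1.09 ± 0.18 (SE, limma adjusted p = 0.00149) and stayed called lower after quantile normalisation, at -1.03 (limma adjusted p = 0.00201).

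Of 11 genes of ion flux and ATP signalling 4 rose, 3 fell and 4 were not called. Kcnn4, a calcium-activated potassium channel, had -1.64 to -1.57 in NM401 and -4.02 to -2.69 in control arrays and rose by 1.91 ± 0.26 (SE, limma adjusted p = 0.000581), with 1.35 under normexp. P2ry2, a G-protein-coupled receptor for extracellular ATP, had 0.34 to 0.69 in NM401 and -0.44 to -0.22 in control arrays and rose by 0.86 ± 0.09 (SE, limma adjusted p = 0.000185). Lrrc8a, a subunit of the volume-regulated anion channel, fell by 0.38 ± 0.06, and Nt5e, an ectoenzyme that makes adenosine, by 0.38 ± 0.06 (SE, limma adjusted p = 0.000835 and 0.000878). Nt5e stood at -0.17, not called, with median scaling. A second tested Lrrc8a probe stood at -0.15 and was not called (limma adjusted p = 0.361).

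All 5 cysteine cathepsins were called, 1 higher and 4 lower, beside 57.3% of all genes called, 21.9% higher and 35.4% lower. Cathepsins are lysosomal proteases whose leakage into the cytosol has been tied to NLRP3 activation by particles, and leakage was not measured here. Ctsl had -1.14 to -0.97 in NM401 and -2.15 to -1.22 in control arrays and rose by 0.66 ± 0.20 (SE, limma adjusted p = 0.0222). Ctss fell by 0.34 ± 0.10, Ctsz by 0.24 ± 0.07 and Ctsc by 0.23 ± 0.07 (SE, limma adjusted p = 0.0188, 0.0226 and 0.0207). A second, dimmer Ctsc probe stood at -0.05 and was not called (limma adjusted p = 0.875). Ctsb, named after its value was seen, fell by 0.25 ± 0.08 (SE, limma adjusted p = 0.0303) and stood at 0.18 after quantile normalisation, not called. None of the 5 was called with slide as a block (limma adjusted p = 0.0539 to 0.318), and after quantile normalisation or median scaling only Ctsl was called.

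The ESCRT machinery sheds gasdermin pores from the membrane in cultured cells. Of 7 genes of this machinery 3 rose and 0 fell, beside 21.9% higher and 35.4% lower over all genes. Vps4a, an ATPase that disassembles the filaments, rose by 0.63 ± 0.06, the filament subunit Chmp3 by 0.52 ± 0.06 and the calcium sensor Pdcd6 by 0.32 ± 0.05 (SE, limma adjusted p = 0.000113, 0.000367 and 0.00122). All 3 were also called with slide as a block, but a second tested probe of Chmp3 was called lower, at -0.25.

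Of 5 tested inhibitors 1 rose and 3 fell. Serpinb1a, a serpin that restrains inflammatory caspases in mice, had 2.18 to 2.30 in NM401 and 2.93 to 3.06 in control arrays and fell by 0.76 ± 0.05 (SE, limma adjusted p = 4.96e-05). Serpinb9, an inhibitor of granzyme B, fell by 0.63 ± 0.07 (SE, limma adjusted p = 0.000313), and both were called after quantile normalisation and median scaling and with slide as a block. Tnfaip3, a ubiquitin-editing brake on NF-κB, fell by 0.36 ± 0.12 (SE, limma adjusted p = 0.0325), with overlapping groups, and was not called with slide as a block (-0.08) or with median scaling (-0.15). Bcl2, an inhibitor of apoptosis, rose by 1.62 ± 0.40 (SE, limma adjusted p = 0.00887), but its probe was well above background on 1 of 4 control arrays and stood at -0.09 with normexp.

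The genes whose 8 values, centred on the control mean, lay closest to those of the brightest Nlrp3 probe were Tnfrsf26, Galnt6, Lix1l, Dnajc21 and Rims2. Their root mean square difference from Nlrp3 was 0.07 for Tnfrsf26 and 0.11 to 0.12 log2 units for the others, with NM401 minus control differences of 0.87 to 1.05 beside 0.96 for Nlrp3. This is a description over 8 arrays that share 2 groups.

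Of the 10 members, 6 had a promoter entry in the RefSeq table (build GRCr8), Nlrp3, Pycard, Casp1, Nek7, P2rx7 and Panx1, so Nlrp3 was the 1 called member that could be searched. In the 250 bases before the start, on both strands, the AP-1 motif TGANTCA was found in 0 of the 6 and in 6.36% of 27457 promoters, and the E-box CACGTG in 0 of the 6 and in 5.79%. The core of NF-κB sites, GGG and CC with any 5 bases between them, was found in 4 of the 6 (Casp1, Nek7, P2rx7 and Panx1) and in 43.5% of all promoters, and the interferon response motif, GAAA repeated after any 2 bases, in Casp1 alone and in 3.29% of all. The window of Nlrp3 held none of the 4 motifs, which says only that these letters are not in that window.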

How the data were processed

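RNA of NR8383 cells was labelled with Cy3, per the labels' protocols, and read on one-colour Agilent arrays. Per the file headers, the authors extracted the intensity of each spot with version 11.0.1.1 of Agilent Feature Extraction, and the processed signal was background-subtracted and detrended within each array but not scaled between arrays. In the table of the whole series, the deposited values equalled the median pixel intensity in 503808 of 503808 values (exact match), so they are linear, uncentred and without background subtraction.

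Each array had 58717 non-control spots of 45598 probes. After outlier spots were removed, repeat spots of one probe were averaged as log2 values, and 47 probes with no usable spot on some array were dropped. A probe was tested, NM401 against control, if it was well above background on 4 or more of the 8 arrays (21660 probes). Tests were two-sided and used limma version 3.58.1 (functions lmFit and eBayes, without covariates) under R 4.3.3. The fit was tested on simulated data with known changes. No spot was saturated (0), and 4 arrays a group limit the precision. Replicate numbers did not pair the samples: deviations from the group means correlated at 0.19, -0.01, 0.09 and -0.06 for numbers 1 to 4.

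Members were matched by the gene name in the files. Other genes were also matched by accession through a RefSeq table (GRCr8, names only), which named 21109 probes. Probe positions are those of the files (rn4), and exon or UTR annotation was not used here. All members are named, and of each further list up to 4 called genes with the smallest p. Some genes of these lists are counted but not reported here by name. The members, lists and rules were chosen with earlier results of these data known. The alternatives were normexp background correction (offset 50), quantile normalisation, median scaling, no filter or a filter on all 8 arrays, outlier spots kept, slide as a block or slide 1 only, a replicate block, the deposited series values, the mean of a gene's probes, and leaving out each replicate.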

Additional observations from a re-analysis of the deposited data

How the results depend on the processing

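Of 152 comparisons of a member's value with an alternative, 139 kept their direction and side of the threshold, 7 newly passed it (Casp8 in 5, Casp1 and Nek7 with median scaling), 3 missed it (Nlrp3, Casp4 and Gsdmd within slide 1) and 3 turned: Nek7 at -0.070 with slide as a block and at -0.070 within slide 1, and Pycard at 0.12 with median scaling, none of them called. Members called higher numbered 5 with median scaling and 0 within slide 1, where 1 was lower. Other pathway genes called higher numbered 27 with median scaling and 7 within slide 1. Those called lower numbered 12 after quantile normalisation, 7 with median scaling, 10 with slide as a block and 3 within slide 1. The slide 1 fit holds 1 NM401 array, and otherwise the cause was not tested. Leaving out 1 replicate gave 2 to 3 members higher, 2 lower, 16 to 18 other genes higher and 16 to 22 lower. With a replicate block, whose numbers do not pair the samples, 2 members were higher and 2 lower, and 17 and 18 other genes. By Dixon's criterion 0 of 16 groups of 4 member values held an outlying array. Signal near background limits the 2 dimmer Nlrp3 probes, the dimmest Nek7 probe, P2rx7 and Panx1.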
